A study of Mus musculus with 28 samples.

Results

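Group 2 innate lymphoid cells (ILC2), the tissue-resident lymphocytes that answer epithelial alarm cytokines with type 2 cytokines, were compared between mice given papain together with FK506 and mice given papain alone. The comparison rests on 6 of the 28 libraries of the series, taken by their labels: 3 papain + FK506 libraries and 3 papain libraries, with 3 untreated ILC2 libraries shown beside them. All mice were wild type (WT) C57BL/6 animals aged 8 weeks, and the cells came from the lung by flow cytometry. The papain + FK506 mice received 2 intraperitoneal courses of FK506 (0.2 mg daily for 3 days each, with a gap of 2 days), the later one together with intranasal papain (50 µg daily). The papain group received papain at that dose, and whether it also received the methyl cellulose in which FK506 was suspended is not stated in the labels. The untreated group received neither agent. The labels number the libraries 1 to 3 in each group without saying that they came from separate mice or from pools, so p-values measure the spread between these libraries. Replicates 1 and 2 of every group share a code in the names of the deposited tables and replicate 3 has another, so every difference was taken over all libraries and within each code.

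FK506 (tacrolimus) binds small immunophilins, of which FKBP12 (gene Fkbp1a) is the best known, and the complex blocks calcineurin, the calcium-dependent phosphatase that lets NFAT transcription factors enter the nucleus. In lymphocytes NFAT acts together with AP-1 and NF-kB on cytokine genes. ILC2 depend on the transcription factors GATA3 and RORα and on IL-7, they sense IL-33 through ST2 (gene Il1rl1), and when activated they make IL-13, IL-5, amphiregulin and GM-CSF. Papain is a plant cysteine protease that injures airway epithelium and releases IL-33, which makes it a common trigger of ILC2 in the mouse lung.

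Cxcl2, a chemokine gene, was the gene that passed the test here, and Il13 encodes the type 2 cytokine for which ILC2 are best known, although its own difference did not pass. The 250 bases before the annotated start of each are shown (RefSeq, GRCm38.p6, 5′ to 3′ on the strand of the gene). NFAT, on which the blocked enzyme acts, and NF-kB, which acts together with NFAT on cytokine genes, bind short motifs of this kind. Cxcl2 lies on the forward strand, with the window at chr5:90903649-90903898, and capitals mark matches to an NF-kB type motif, spelled GGG, any 2 bases and TTTCC.
Cxcl2: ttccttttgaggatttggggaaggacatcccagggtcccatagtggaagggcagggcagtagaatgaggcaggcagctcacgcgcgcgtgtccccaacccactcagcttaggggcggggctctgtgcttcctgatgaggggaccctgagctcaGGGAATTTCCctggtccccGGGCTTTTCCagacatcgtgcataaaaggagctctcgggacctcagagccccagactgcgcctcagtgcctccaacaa
Il13 lies on the reverse strand, with the window at chr11:53634703-53634952, and capitals mark GGAAA, the NFAT core motif, or its complement TTTCC.
Il13: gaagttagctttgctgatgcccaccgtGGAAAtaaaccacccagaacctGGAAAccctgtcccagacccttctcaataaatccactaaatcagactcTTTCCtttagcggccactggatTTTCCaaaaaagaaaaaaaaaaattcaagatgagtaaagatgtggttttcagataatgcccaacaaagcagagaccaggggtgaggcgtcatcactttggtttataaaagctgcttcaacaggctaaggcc
Both strands were searched. The Cxcl2 window held 2 matches to this motif, which was found in 1.41% of 32851 promoter windows of the same length, and each of those matches contains TTTCC, so the same letters also count as 2 GGAAA matches. The Il13 window held 4 GGAAA matches and none of the longer motif, and GGAAA was found in 55.6% of the windows. These are matches of letters only.

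The deposited ILC2 values are whole numbers on the CPM scale (counts scaled to a common library size), read as CPM rounded by the authors, from libraries that sample the 3′ ends of transcripts. They summed to 589429 to 636598 in papain + FK506 libraries and to 609483 to 613636 in papain libraries. The rounded values keep a trace of the value of 1 read, from which the depth was estimated at 1550388, 1495886 and 2512563 reads in papain + FK506 replicates 1, 2 and 3, against 1610306, 1436782 and 904159 in the papain replicates. Genes above 0 numbered 3911, 6649 and 7240 in papain + FK506 and 6979, 5995 and 3134 in papain. The libraries with the fewest genes were thus replicate 1 of papain + FK506 and replicate 3 of papain.

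The ILC2 label was checked by marker genes. A list of 34 ILC2 identity and receptor genes summed to 9676, 7854 and 1550 in papain + FK506 and to 8722, 9436 and 8089 in papain. Papain + FK506 replicate 3 went against its label: Gata3, Il1rl1 and Klrg1 were at 0 there, with Il7r at 10 and Rora at 15. That library also held 20061 of class II histocompatibility genes (10 genes) against 154 to 369 in papain + FK506 replicates 1 and 2 and 162 to 2077 in papain. Markers of macrophages, monocytes and dendritic cells (22 genes) summed to 11682 there, against 309 and 643 in the other papain + FK506 libraries and 357, 538 and 2558 in papain. C1qa, a complement gene of macrophages, stood at 1845 in papain + FK506 replicate 3 and at 0 in the other 5 libraries. Markers of type 2 alveolar epithelial cells (AEC2, 15 genes) summed to 0, 621 and 4133 in papain + FK506 and to 367, 119 and 6940 in papain, high in replicate 3 of both. T cell markers (13 genes in the tables) summed to 928, 897 and 129 in papain + FK506 and to 470, 626 and 0 in papain. Many results that lean on replicate 3 of papain + FK506 are therefore also given without it or within each code. On the ILC2 list the untreated libraries summed to 8836, 9139 and 3707. Untreated replicate 3 also held 39944 of airway epithelial markers (15 genes), against at most 648 in any other ILC2 library. It stayed in the fit of 9 libraries, and its values shown beside the other groups are to be read with these sums. In such bulk libraries, fewer cells of a type and less RNA per cell cannot be told apart, and the part of other cells in the differences that follow was not tested.

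**Figure D1:**
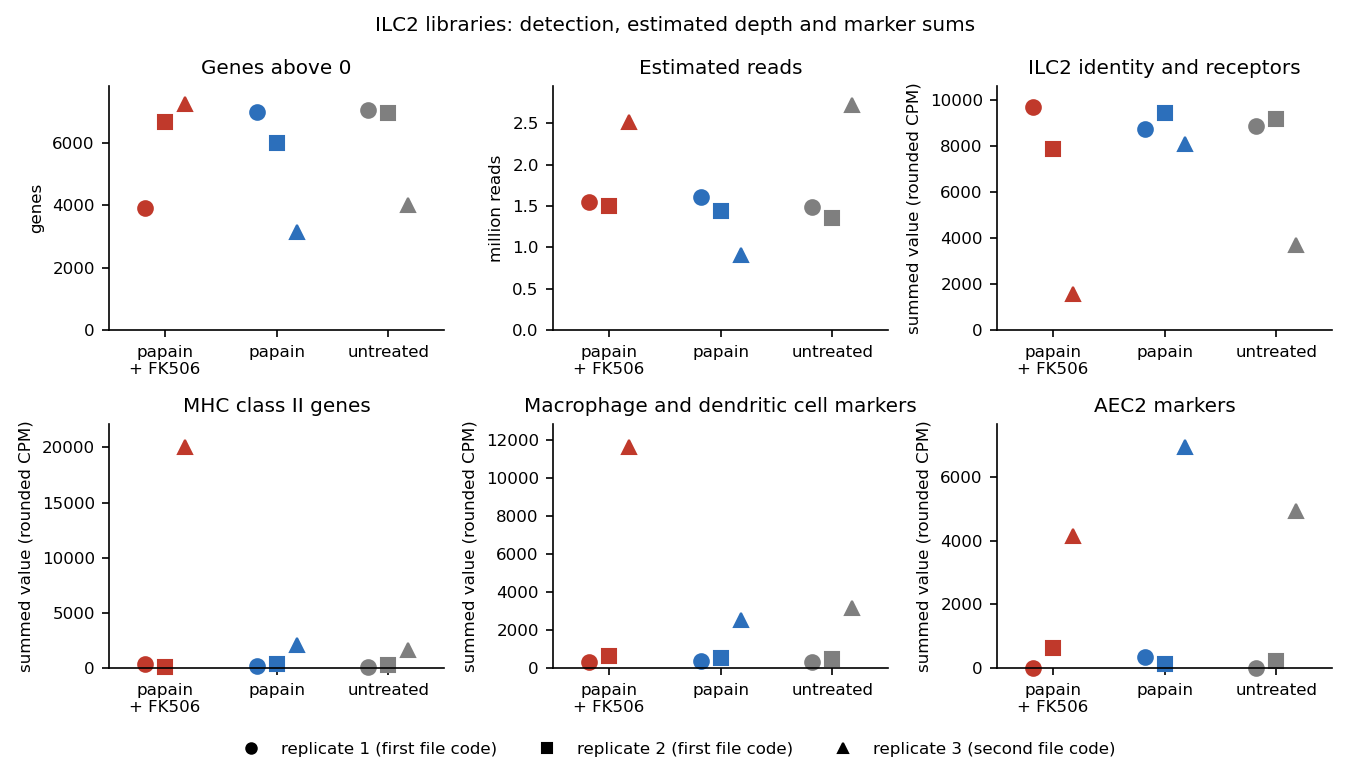
Each point is 1 ILC2 library, by group (papain + FK506, papain, untreated) and replicate (circle, square and triangle for replicates 1, 2 and 3). The panels give genes above 0, estimated reads and the summed deposited values of 4 marker lists; papain + FK506 replicate 3 has the lowest ILC2 sum (1550) and the highest class II sum (20061).

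Across 6271 tested genes, limma called 1 gene at an adjusted p under 0.05 (0.0159% of those tested), and that gene, Cxcl2, was higher in papain + FK506. An unadjusted p under 0.05 was reached by 257 genes (4.1%), of which 158 were higher (2.52%) and 99 lower (1.58%) in papain + FK506. The deposited values of the groups did not overlap for 429 genes (6.84%), with papain + FK506 above papain for 254 (4.05%) and below for 175 (2.79%). Within both file codes at once, papain + FK506 lay apart from papain for 739 genes (11.8%), 430 on the higher side (6.86%) and 309 on the lower side (4.93%). The median log2 difference over all tested genes was 0.15, and 54.7% of genes had a difference above 0. Within the codes the medians were of opposite sign, at -0.44 in replicates 1 and 2 and 1.64 in replicate 3. The library with fewer genes above 0 was a papain + FK506 one among replicates 1 and 2 and the papain one in replicate 3, and the part of detection in these medians was not tested. Without papain + FK506 replicate 3 the median over all genes was -0.41, against which the lists without that library are to be read.

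The error of the difference varied with the level of the gene. The median standard error of the log2 difference was 1.66 for the 2047 genes that averaged under 20 over the 6 libraries, of whose values 47.3% were 0, and 1.69 for the 1986 genes from 20 to 50. It was 1.31 for the 1784 genes from 50 to 200, 0.72 for the 401 genes from 200 to 1000 and 0.32 for the 53 genes that averaged 1000 or more. The share of genes apart within both codes also varied, so the shares over all genes given beside the lists are not matched for level. It was 5.23% under 20, 12.1% from 20 to 50, 17.9% from 50 to 200, 15.7% from 200 to 1000 and 15.1% for the 53 genes. Among those 53 genes, 10 (18.9%) had an unadjusted p under 0.05. Those named here were chosen after their values were seen, as were the other genes named outside the naming rule. Among them, Cxcl2, Psap, Hsp90ab1 and Fth1 were higher in papain + FK506, and Rn45s, Ly6e, S100a4, B2m and Rgs2 were lower. B2m, the light chain of class I histocompatibility molecules, was the only one of the 53 whose groups did not overlap. It stood at 1502, 2132 and 1910 in papain + FK506 and at 2649, 2300 and 3424 in papain (log2 difference -0.57, SE 0.27, adjusted p = 0.933 by limma). The B2m difference was -0.21 without papain + FK506 replicate 1 and -0.12 without both libraries with the fewest genes. Its untreated values of 1623, 1956 and 2056 lay among those of papain + FK506. S100a4, the gene of a calcium-binding protein of motile leukocytes, had 2891, 2389 and 873 in papain + FK506 against 4098, 4011 and 1482 in papain, lower within both codes. The S100a4 difference was -0.13 without both libraries with the fewest genes.

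Cxcl2 encodes CXCL2, a ligand of the neutrophil receptor CXCR2. It had values of 3411, 1801 and 11009 in papain + FK506 replicates 1, 2 and 3, against 1141, 596 and 4398 in papain. The untreated libraries had 1419, 1823 and 6063. Each papain + FK506 value exceeded the papain value of the same file code, although papain replicate 3 exceeded papain + FK506 replicates 1 and 2, so the groups overlap when codes are ignored. Cxcl2 averaged 5407 ± 4918 in papain + FK506 and 2045 ± 2056 in papain (SD, n = 3 each). With the code in the limma fit the log2 difference was 1.52 (SE 0.25, 95% interval 1.01 to 2.03, adjusted p = 0.00217). It was 1.35 in replicates 1 and 2 and 1.86 in replicate 3. Without papain + FK506 replicate 3 the difference was 1.35 and no longer passed (adjusted p = 0.822), and in a fit of replicates 1 and 2 alone it was 1.40 (adjusted p = 0.655), in which limma called 0 of 5249 genes, with 380 (7.24%) at an unadjusted p under 0.05. Removing papain replicate 2, papain replicate 3 or papain + FK506 replicate 1 also took the call away, with differences of 1.24, 1.50 and 1.52. The direction stayed the same in all 19 alternatives tried, with differences of 1.21 to 1.81.

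The other chemokines did not pass. Of 34 CXC and CC chemokine and receptor genes, 12 were tested and 8 were at 0 in all 6 libraries. Of the 12, 7 had a difference above 0 and 5 below, with a median of 0.43 beside 0.15 over all genes. Ccl1, a chemokine of activated type 2 lymphocytes, had 45, 91 and 0 in papain + FK506 against 133, 120 and 75 in papain, lower within both codes (log2 difference -2.40, SE 1.28, adjusted p = 0.933). The Ccl1 difference was -1.26 without papain replicate 3 and -0.72 without both libraries with the fewest genes. Ccl3 and Ccl4, which activated myeloid cells and lymphocytes make, did not pass the filter on low values. Ccl3 had 0, 0 and 154 in papain + FK506 and 0, 3 and 0 in papain, and Ccl4 had 0, 0 and 114 in papain + FK506 and was at 0 in papain, so both were seen in papain + FK506 replicate 3, where the macrophage markers were high.

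**Figure D2:**
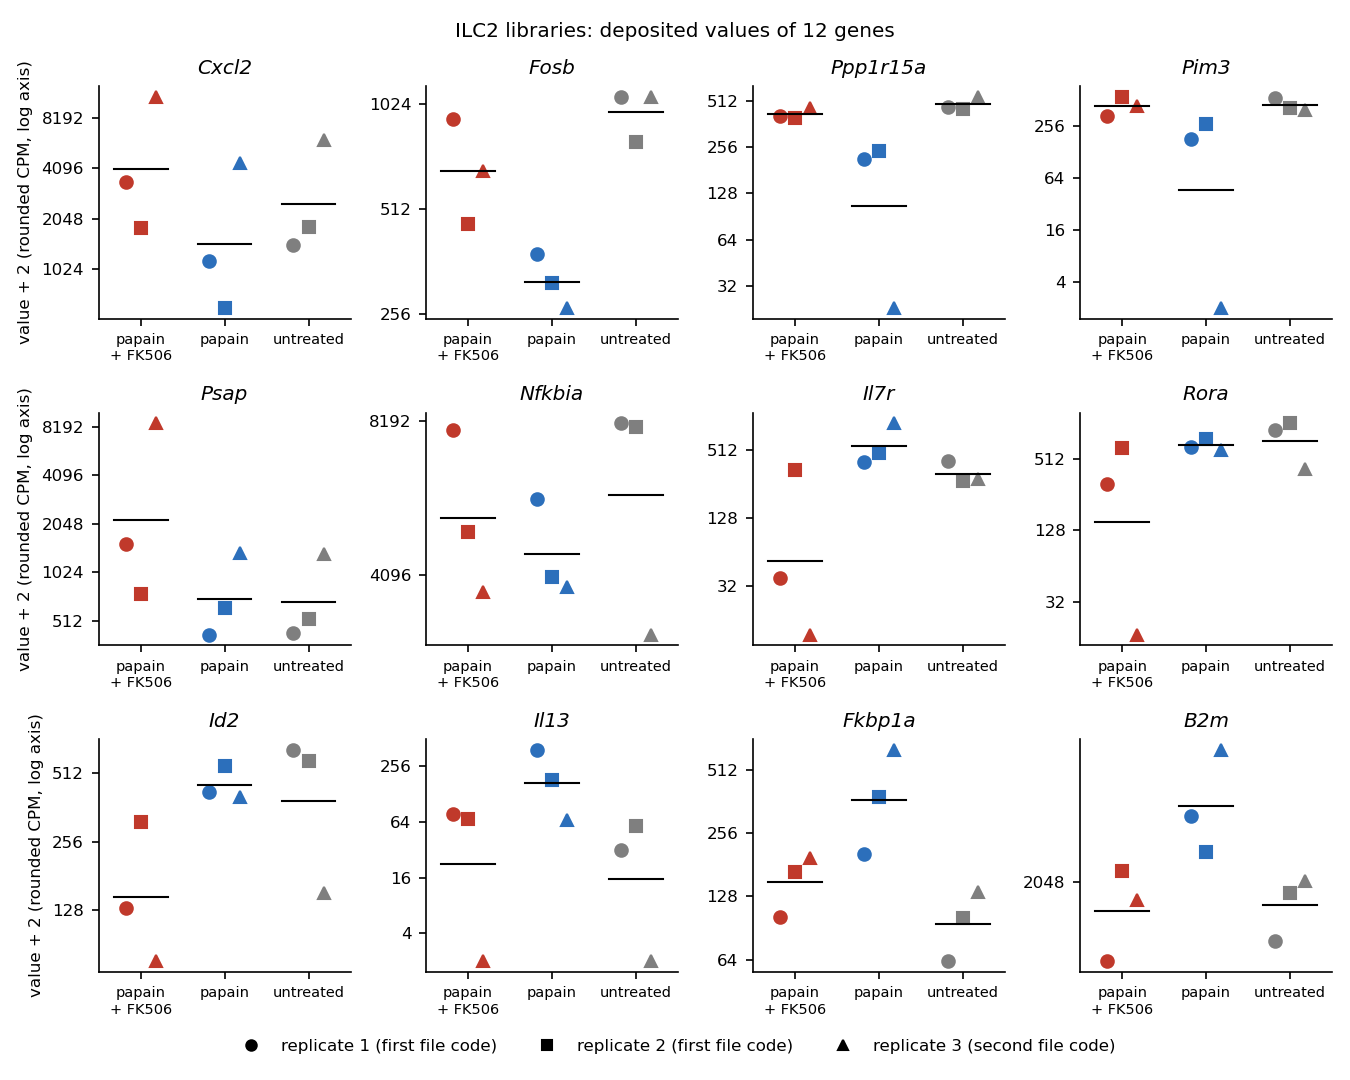
Deposited values (rounded CPM, plus 2, on a log axis of base 2) of 12 genes in each ILC2 library of the papain + FK506, papain and untreated groups; the line is the geometric mean of value + 2. For Cxcl2 each papain + FK506 library lies above the papain library of its replicate number, and for Il7r, Id2, Fkbp1a and B2m all 3 papain + FK506 libraries lie below all 3 papain libraries.

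Most genes that define ILC2 had differences below 0, without any passing the test. Of 34 identity and receptor genes, 30 were tested, 0 were called, 24 had a difference below 0 and 6 above, and the median was -1.22 beside 0.15 over all genes. Within both codes, 5 of the 30 lay below papain (4.93% of all genes did) and 0 above. The median was -0.33 in replicates 1 and 2, where that of all genes was -0.44, and -2.41 in replicate 3, where it was 1.64. Without papain + FK506 replicate 3, the library with the class II and macrophage transcripts given above, 20 were below 0 and 9 above, with a median of -0.43 beside -0.41 over all genes.

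Il7r encodes the α chain of the IL-7 receptor, on which ILC2 survival depends. Its values were 36, 340 and 10 in papain + FK506 and 396, 476 and 879 in papain, with 403, 271 and 280 in untreated libraries. The groups did not overlap. The log2 difference was -3.33 (SE 0.82, 95% interval -4.98 to -1.68, unadjusted p = 0.000196, adjusted p = 0.417 by limma). It was -2.16 in replicates 1 and 2, mostly from replicate 1, and -5.67 in replicate 3. Without papain + FK506 replicate 3 the fitted difference was -2.29 (adjusted p = 0.822), and without both libraries with the fewest genes it was -1.47.

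Rora, which encodes the transcription factor RORα needed for ILC2 development, had 314, 627 and 15 in papain + FK506 and 634, 752 and 603 in papain. Here papain + FK506 replicate 2 lay just inside the papain range, and replicate 3 was close to 0. The log2 difference was -2.12 (SE 0.61, adjusted p = 0.933) and -0.95 without papain + FK506 replicate 3. Id2, an inhibitor of E proteins required by all innate lymphoid cells, had 129, 311 and 74 in papain + FK506 against 424, 551 and 403 in papain, with no overlap. Its log2 difference was -1.62 (SE 0.65, adjusted p = 0.933) and -1.71 without papain + FK506 replicate 3. The Id2 difference was -0.44 without both libraries with the fewest genes. Bcl11b, a factor that holds ILC2 identity, had 206, 265 and 29 in papain + FK506 against 330, 537 and 470 in papain, again with no overlap. Its log2 difference was -1.85 (SE 0.72), and -1.28 without papain + FK506 replicate 3. Unlike those of Rora, the differences of Id2 in the 2 codes were close, at -1.50 in replicates 1 and 2 and -1.88 in replicate 3.

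For 3 more defining genes the codes differed. Il1rl1, the IL-33 receptor gene, had 316, 130 and 0 in papain + FK506 and 172, 145 and 271 in papain. Its log2 difference was 0.12 in replicates 1 and 2 and -6.64 in replicate 3, so the fitted value of -2.13 (SE 1.03, adjusted p = 0.933) comes from replicate 3. Klrg1, an inhibitory receptor of mature ILC2, followed the same course with 550, 123 and 0 in papain + FK506 and 240, 242 and 282 in papain. Gata3 had 315, 145 and 0 in papain + FK506 and 255, 166 and 56 in papain, with 391, 807 and 440 in untreated libraries. The Gata3 difference was -0.18 in replicates 1 and 2 and 0.15 in the fit without papain + FK506 replicate 3.

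Among type 2 cytokines and ILC2 effectors, 22 genes were listed, 13 were tested and 6 were at 0 in all 6 libraries, Il4 and Il9 among them. None was called; 10 had a difference below 0 and 3 above, 4 lay below papain within both codes and 0 above (4.93% and 6.86% of all genes), and the median was -0.85 (-0.43 without papain + FK506 replicate 3). Il13, whose product drives mucus secretion and airway hyperreactivity, had 77, 68 and 0 in papain + FK506 against 386, 182 and 66 in papain. The untreated values of 30, 56 and 0 were nearer to those of papain + FK506. Papain + FK506 was lower in both codes, with log2 differences of -2.08 and -4.64, and the fitted value was -2.93 (SE 1.31, 95% interval -5.58 to -0.29, unadjusted p = 0.0305, adjusted p = 0.933). It was -2.39 without papain + FK506 replicate 3, and it lay between -3.60 and -2.01 in all 19 alternatives.

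The other effectors were less even. Il5, the eosinophil growth factor, had 141, 15 and 0 in papain + FK506 and 65, 45 and 0 in papain, with a 95% interval of the log2 difference from -3.59 to 3.02. Areg, which encodes amphiregulin, a growth factor of tissue repair, had 231, 235 and 36 in papain + FK506 and 250, 184 and 649 in papain. Its difference was -0.12 in replicates 1 and 2 and -3.56 in replicate 3. Csf2, the gene of GM-CSF, had 0, 22 and 0 in papain + FK506 against 34, 54 and 1 in papain, lower within both codes but near the detection limit in replicate 3. Furin, a protease that processes cytokine and growth factor precursors, had 374, 740 and 91 in papain + FK506 against 1106, 1142 and 123 in papain (log2 difference -0.85, SE 0.54). Its deposited values were lower within both codes, though after scaling the difference in replicate 3 was 0.10.

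The calcineurin and NFAT list held the enzyme, its inhibitors, the calcium entry channel and known targets. Of 36 genes, 27 were tested, 0 were called, 3 had an unadjusted p under 0.05 on the lower side and 0 on the higher side. The median was -0.39, and -0.52 without papain + FK506 replicate 3, beside -0.41 over all genes in that fit. Without both libraries with the fewest genes it was 0.14, with 14 genes above 0 and 13 below, beside 0.37 over all genes. Within both codes, 6 of the 27 lay below papain and 1 above, beside 4.93% and 6.86% of all genes. Stim1, the sensor of calcium stores in the endoplasmic reticulum, had 0, 23 and 2 in papain + FK506 against 43, 186 and 29 in papain, without overlap (log2 difference -3.31, SE 1.42, adjusted p = 0.933). Nfatc3, an NFAT factor, had 0, 131 and 61 in papain + FK506 against 231, 180 and 127 in papain (log2 difference -2.61, SE 1.19). The Nfatc3 difference was -0.50 without papain + FK506 replicate 1 and -3.90 without papain + FK506 replicate 2. Orai2, a subunit of calcium release-activated channels, had 0, 7 and 0 in papain + FK506 against 11, 37 and 146 in papain. Without both libraries with the fewest genes, the differences of Stim1, Nfatc3 and Orai2 were -2.74, -0.33 and -1.20.

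Rcan1 and Nr4a1, which report on the pathway, did not separate the groups. Rcan1, a feedback inhibitor of calcineurin whose transcription NFAT drives, had 0, 0 and 72 in papain + FK506 and 0, 29 and 188 in papain (log2 difference -1.60, 95% interval -5.08 to 1.87). It was listed at 0 in 3 of the 6 libraries and its interval spans 0, so a difference was not resolved. The cause of the values at 0 was not tested. Nr4a1, an orphan nuclear receptor induced through calcium signals, had 459, 667 and 928 in papain + FK506 and 330, 214 and 2497 in papain, higher in replicates 1 and 2 and lower in replicate 3.

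The list of FK506-binding protein and cyclophilin genes gave an uneven picture. Of its 17 genes, 10 were tested and 0 were called, 6 with a difference above 0 and 4 below (median 0.33). The cyclophilin genes Ppia, Ppib and Ppif were among those tested, and cyclophilins are not binding partners of FK506. The counts and the median are thus not those of the binding partners alone. Fkbp1a, the FKBP12 gene, had 100, 165 and 193 in papain + FK506 against 201, 379 and 635 in papain, so the groups did not overlap. The log2 difference was -1.27 (SE 0.78, 95% interval -2.85 to 0.30, adjusted p = 0.933), with -1.32 in replicates 1 and 2 and -1.17 in replicate 3. The Fkbp1a difference was -0.69 without both libraries with the fewest genes. The untreated values of 61, 99 and 132 lay below those of papain too. Fkbp4, which encodes the HSP90 co-chaperone FKBP52, had 229, 176 and 33 in papain + FK506 against 109, 36 and 0 in papain, and Fkbp8, which encodes a mitochondrial member, had 105, 91 and 92 in papain + FK506 against 85, 52 and 0 in papain.

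Most AP-1 and other immediate early genes had differences above 0. Of 26 listed, 25 were tested, 0 were called, 22 had a difference above 0 and 3 below, and 5 lay above papain within both codes with 0 below, beside 6.86% and 4.93% of all genes. The median was 0.55, with -0.14 in replicates 1 and 2 and 1.40 in replicate 3. It was 0.13 without papain + FK506 replicate 3, with 16 genes above 0 and 9 below, beside -0.41 over all genes. Fosb, an AP-1 subunit, had 921, 463 and 656 in papain + FK506 against 380, 312 and 265 in papain, without overlap, while untreated libraries had 1070, 794 and 1071. The Fosb log2 difference was 1.07 (SE 0.46, 95% interval 0.13 to 2.00, adjusted p = 0.933), and 0.86 without papain + FK506 replicate 3. Fosl2, another AP-1 subunit, had 944, 720 and 411 in papain + FK506 against 666, 441 and 159 in papain, and 1188, 1450 and 1037 in untreated libraries. Klf6, an early response zinc finger factor, had 580, 687 and 690 in papain + FK506 against 476, 397 and 485 in papain, a small difference with no overlap (0.55, SE 0.47 on the log2 scale, and 0.26 without papain + FK506 replicate 3).

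NF-kB genes were nearer to level over all replicates, but the codes differed. Of 22 subunit and feedback genes, 20 were tested and 0 called, 11 with a difference above 0 and 9 below (median 0.07). The median was -1.06 in replicates 1 and 2 and 0.64 in replicate 3, beside -0.44 and 1.64 over all genes. Within both codes 2 lay below papain and 0 above, beside 4.93% and 6.86% of all genes. Without papain + FK506 replicate 3, 5 were above 0 and 14 below (median -0.78, beside -0.41 over all genes). Nfkbia, the gene of the NF-kB inhibitor IκBα and one of the best measured, had 7875, 4960 and 3785 in papain + FK506 and 5754, 4062 and 3883 in papain. Its log2 difference was 0.26 (SE 0.19) with a 95% interval from -0.12 to 0.63. The upper bound lies under the lower bound of the Cxcl2 interval, 1.01, but Cxcl2 was singled out as the gene called, so this comparison is no test.

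**Figure D3:**
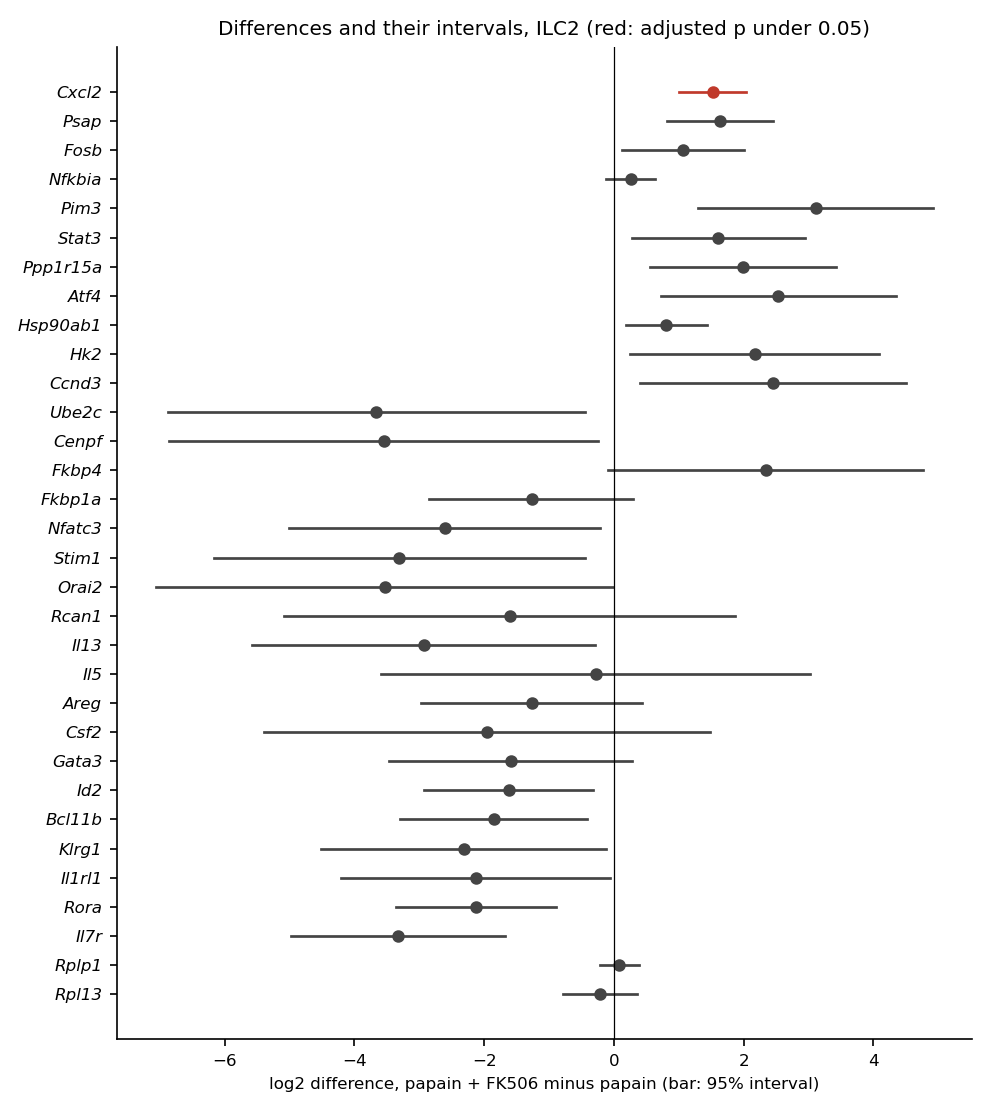
Log2 differences (papain + FK506 minus papain) of 32 genes in ILC2 with 95% intervals from the limma fit of 9 libraries; the red point, Cxcl2 at 1.52 (1.01 to 2.03), is the only one that passed an adjusted p of 0.05. Intervals of low genes such as Orai2 and Ube2c are several log2 units wide, and those of Rplp1 and Nfkbia are narrow.

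Kinase and survival genes downstream of cytokine receptors were led by Pim3. Pim3, a serine and threonine kinase that promotes survival, had 330, 562 and 438 in papain + FK506 against 179, 268 and 0 in papain, without overlap; untreated libraries had 546, 415 and 388. Its log2 difference was 3.11 (SE 0.90, adjusted p = 0.933), of which replicates 1 and 2 gave 0.73 and replicate 3 gave 7.86, where the papain library was at 0 and the fitted value depends on the pseudocount. It was 1.81 without papain + FK506 replicate 3, and in replicates 1 and 2 alone 0.79. Stat3, a signal transducer of several cytokine receptors, had 761, 249 and 544 in papain + FK506 against 350, 107 and 97 in papain. Its log2 difference was 1.61 (SE 0.66), and 1.26 without papain + FK506 replicate 3. Each papain + FK506 value exceeded that of the papain library with the same number, but replicate 2 of papain + FK506 lay below replicate 1 of papain. Of 17 tested Pim and BCL-2 family genes 0 were called (11 above 0, 6 below, median 0.19), and of 18 STAT5 and SOCS pathway genes 0 were called (11 above, 7 below, median 0.24). Both medians were below 0 without papain + FK506 replicate 3, at -0.39 and -0.10.

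Stress response genes also differed most in replicate 3. Of 24 genes of the unfolded protein and integrated stress response, 19 were tested and 0 called, 14 with a difference above 0 and 5 below, and 5 lay above papain within both codes with 1 below (6.86% and 4.93% of all genes). Their median was 0.91, made of -0.87 in replicates 1 and 2 and 4.75 in replicate 3. Ppp1r15a, whose product GADD34 ends the integrated stress response, had 404, 390 and 459 in papain + FK506 against 212, 240 and 21 in papain, with no overlap. The untreated libraries had 465, 449 and 542, close to papain + FK506. Its log2 difference was 1.99 (SE 0.71, 95% interval 0.56 to 3.42, adjusted p = 0.933), and 0.63 in the fit of replicates 1 and 2. Atf4, the transcription factor of that response, had 477, 384 and 294 in papain + FK506 against 355, 299 and 0 in papain, and 0.21 was left of its log2 difference of 2.53 in the fit of replicates 1 and 2. Calr, which encodes the chaperone calreticulin, had 330, 376 and 391 in papain + FK506 against 312, 253 and 70 in papain, while the disulfide isomerase gene Pdia3 was lower, with 152, 276 and 155 in papain + FK506 against 424, 344 and 498 in papain.

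Of 18 heat shock genes, 15 were tested and 0 called (11 above 0, 4 below, median 0.51, and -0.23 without papain + FK506 replicate 3). Hsp90ab1, the constitutive HSP90, had 4424, 2314 and 1720 in papain + FK506 against 3064, 2312 and 481 in papain. Replicate 2 was level between the groups, and the log2 difference of 0.81 (SE 0.31, adjusted p = 0.933) was 0.03 in replicates 1 and 2 together.

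Cell cycle transcripts were scarce. Of 39 genes, 23 were tested and 0 called, 16 with a difference below 0 and 7 above (median -0.88). The median was -1.56 without papain + FK506 replicate 3, beside -0.41 over all genes. Without both libraries with the fewest genes it was -0.28, with 8 genes above 0 and 12 below, beside 0.37 over all genes. Of those 2 libraries, papain + FK506 replicate 1 had 27 of the 39 genes at 0 and papain replicate 3 had 26. Within both codes 3 genes lay below papain and 0 above (4.93% and 6.86% of all genes). Mki67, the proliferation marker, was 0 in all 3 papain + FK506 libraries and 41, 36 and 0 in papain, so no fold is given. Ube2c, a conjugating enzyme of the mitotic ubiquitin ligase, had 0, 0 and 9 in papain + FK506 against 73, 13 and 98 in papain. It was at 0 in all untreated libraries and passed the filter on low values through the papain libraries alone. The filter thus favoured its direction, which is no support for a difference. The kinetochore gene Cenpf was at 0 in all papain + FK506 libraries against 20, 6 and 88 in papain. Ccnd3, a cyclin of the G1 phase, had 610, 205 and 168 in papain + FK506 and 181, 273 and 0 in papain, so the groups overlapped.

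No gene of energy metabolism or translation passed the test. Of 13 tested glycolytic genes 0 were called (median 0.10, with -0.21 in replicates 1 and 2 and 3.60 in replicate 3), and Hk2, the inducible hexokinase, had 363, 379 and 86 in papain + FK506 against 206, 244 and 0 in papain. Of 31 tested nuclear genes of oxidative phosphorylation 0 were called (21 above 0, 10 below, median 0.27), and without papain + FK506 replicate 3 the split was 10 above and 20 below (median -0.17). Of 36 tested genes of cytosolic ribosomal proteins 0 were called, 21 above 0 and 15 below, with a median of 0.07. Within the codes it was 0.14 in replicates 1 and 2 and -0.14 in replicate 3, beside -0.44 and 1.64 over all genes. Rplp1, an acidic ribosomal protein gene, had 10265, 7499 and 2572 in papain + FK506 and 6692, 7614 and 3420 in papain. Its interval of the log2 difference, -0.22 to 0.39, was the narrowest among the genes named here.

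**Figure D4:**
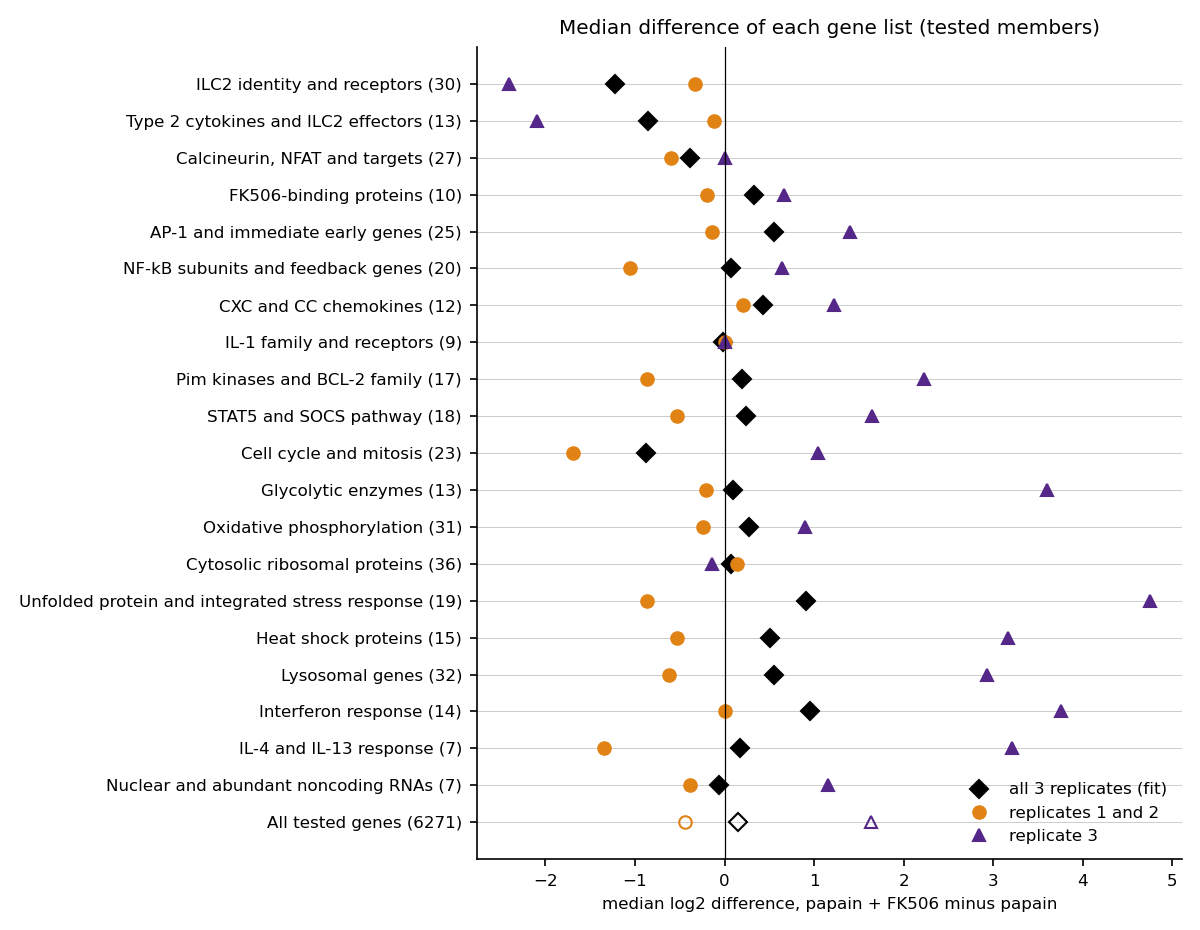
Median log2 difference (papain + FK506 minus papain) of the tested members of each gene list other than those of other cell types, their number in brackets, in the fit of all replicates (black), in replicates 1 and 2 (orange) and in replicate 3 (purple), with all tested genes in the bottom row. Stress response (4.75 and -0.87) and lysosomal genes (2.93 and -0.62) lie to the right in replicate 3 and to the left in replicates 1 and 2, as all genes do (1.64 and -0.44); ILC2 identity (-2.41) and type 2 effectors (-2.09) lie to the left in replicate 3.

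Psap, which encodes the lysosomal precursor prosaposin, had 1522, 749 and 8602 in papain + FK506 against 417, 611 and 1340 in papain, and 428, 522 and 1318 in untreated libraries. It was higher in papain + FK506 within both codes, with a log2 difference of 1.63 (SE 0.40, 95% interval 0.82 to 2.45, unadjusted p = 0.0002, adjusted p = 0.417). Without papain + FK506 replicate 3, the library with the macrophage and class II sums of 11682 and 20061, it was 0.94 (adjusted p = 0.822). Ctsc, which encodes the lysosomal protease cathepsin C, had 46, 63 and 563 in papain + FK506 against 0, 36 and 0 in papain. Of 36 lysosomal genes 32 were tested and 0 were called, 20 with a difference above 0 and 12 below (median 0.55). The split was 10 above and 21 below without papain + FK506 replicate 3 (median -0.28).

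Of 26 interferon response genes 14 were tested and 0 called, 10 above 0 and 4 below, with a median of 0.96. The median was 0.01 in replicates 1 and 2 and 3.76 in replicate 3, where the papain library had 22 of the 26 genes at 0. Without papain + FK506 replicate 3 it was 0.63, with 7 genes above 0 and 4 below. Ifi27l2a, an interferon-induced gene, had 54, 13 and 171 in papain + FK506 against 6, 0 and 0 in papain, without overlap. Its log2 difference was 3.94 (SE 1.72, adjusted p = 0.933 by limma), and 2.51 without papain + FK506 replicate 3. Irf1, an interferon regulatory factor, had 391, 170 and 197 in papain + FK506 and 221, 213 and 0 in papain, and its difference was 0.01 in replicates 1 and 2. Sparc, a matrix protein gene of stromal cells, had 172, 34 and 376 in papain + FK506 against 9, 3 and 222 in papain, higher within both codes. Markers of fibroblasts and smooth muscle (17 genes) together summed to 572, 635 and 1842 in papain + FK506 and to 162, 191 and 2182 in papain, and their part in the Sparc values was not tested.

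The remaining lists held no called gene. Of 7 tested genes of the IL-4 and IL-13 response 4 had a difference above 0 and 3 below, and of 9 tested genes of the IL-1 family and its receptors 4 were above and 5 below. Of 13 tested macrophage, monocyte and dendritic cell markers 10 were above 0 and 3 below (median 0.48), and without papain + FK506 replicate 3 the split was 4 to 5. Of 7 tested class II genes 5 were above and 2 below, against 1 and 6 without that library. Of 8 tested T cell markers 7 were above 0 and 1 below (median 1.10), with 6 and 2 without that library. The T cell sums were higher in papain + FK506 replicates 1 and 2 than in any papain library. Neutrophil markers summed to 1, 59 and 308 in papain + FK506, 47, 4 and 720 in papain and 3, 36 and 3023 in untreated libraries, highest in replicate 3 of each group. Markers of basophils and mast cells summed to at most 35 in papain + FK506 and 50 in papain libraries.

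Apart from the lists, the rule for the 12 largest and 12 smallest differences, among genes at an unadjusted p under 0.05 that separated within both codes and averaged 50 or more in the higher group, named mainly genes at or near 0 in one group. Among the 12 largest were Tgm2, which encodes tissue transglutaminase (101, 60 and 437 in papain + FK506 against 2, 2 and 7 in papain), and Naa50, an N-terminal acetyltransferase gene (156, 112 and 164 in papain + FK506 against 29, 0 and 0 in papain). Lztr1, which encodes an adaptor that targets RAS proteins for degradation, had 239, 15 and 62 in papain + FK506 and 0 in all papain libraries. Agps, a gene of ether lipid synthesis, had 79, 59 and 18 in papain + FK506 and 0 in all papain libraries. Ptprb, an endothelial receptor phosphatase gene, had 42, 33 and 170 in papain + FK506 against 0, 0 and 1 in papain.

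Among the 12 smallest, Zcchc10, a zinc knuckle protein gene, had 0, 2 and 0 in papain + FK506 against 53, 205 and 316 in papain, and 113, 129 and 0 in untreated libraries. Its log2 difference of -5.81 (SE 1.59, unadjusted p = 0.000672, adjusted p = 0.933) was the most negative by this rule. Zscan29, a zinc finger gene, was 0 in all papain + FK506 libraries and 34, 45 and 175 in papain. Polg, which encodes the mitochondrial DNA polymerase, was 0 in all papain + FK506 libraries and 9, 36 and 113 in papain. Insig2, which encodes a sterol sensor of the endoplasmic reticulum, had 0, 13 and 0 in papain + FK506 against 28, 33 and 306 in papain. All 24 genes missed the threshold at an adjusted p of 0.933, and with standard errors between 1.42 and 1.73 their fitted values are imprecise.

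**Figure D5:**
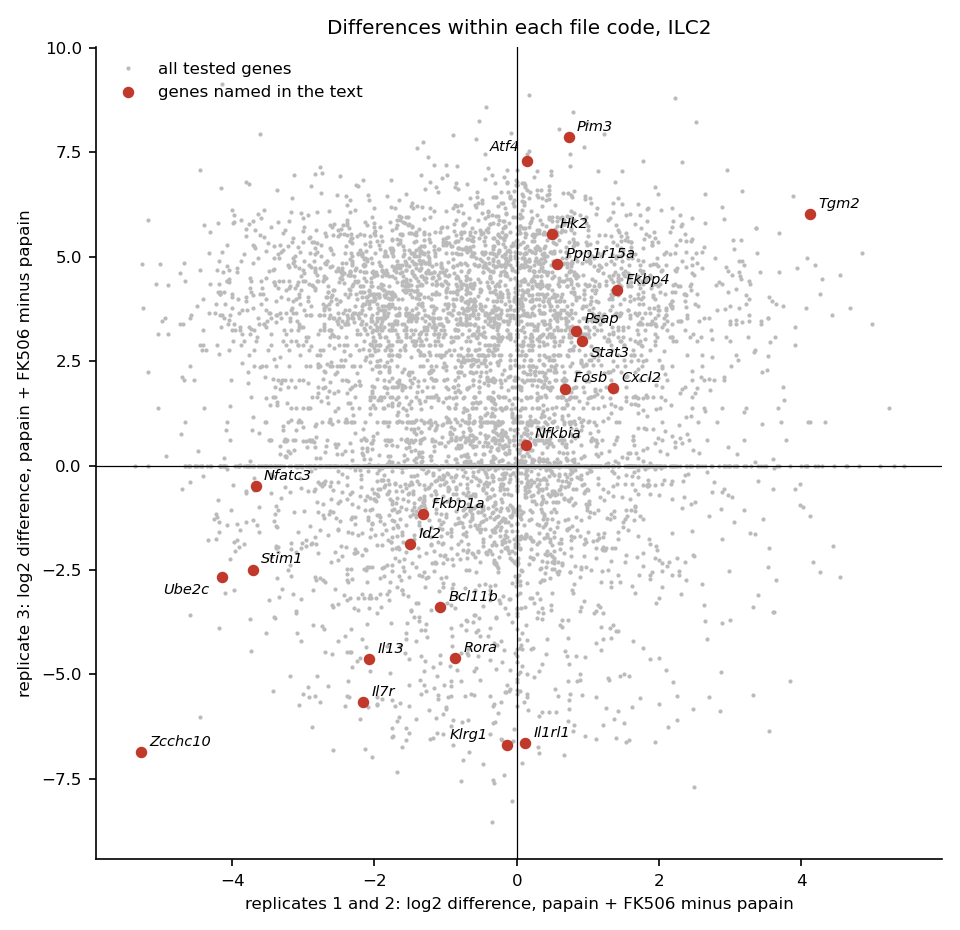
Log2 difference (papain + FK506 minus papain) in replicates 1 and 2 (horizontal) against that in replicate 3 (vertical) for 6271 tested genes (grey) and 23 named genes (red) in ILC2. Cxcl2 (1.35 and 1.86) and Fkbp1a (-1.32 and -1.17) lie near equal values, whereas Pim3, Atf4, Il1rl1 and Klrg1 lie near 0 horizontally and far from 0 vertically.

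The difference between papain + FK506 and papain in ILC2 libraries was also set against that in libraries of the other sorted cells. This was done by an interaction term over the 20 papain + FK506 and papain libraries of 4 cell types. Against basophil, AEC2 and type 1 alveolar epithelial (AEC1) libraries, 0 of 10767 genes were called in each case (0%), with 557 (5.17%), 614 (5.7%) and 608 (5.65%) genes at an unadjusted p under 0.05. Cxcl2 stood at 1888.7, 12069.3 and 16670.7 CPM in papain + FK506 basophil libraries, against 6801.1, 7820.1 and 8375.6 CPM in papain basophil libraries. In this fit the Cxcl2 difference in ILC2 was itself not resolved, at 1.52 (SE 1.29, 95% interval -1.17 to 4.21). Its SE was 0.25 in the fit of 9 ILC2 libraries. The ILC2 difference minus the basophil difference was 1.65 for Cxcl2, with a 95% interval from -2.16 to 5.46, so whether the difference was larger in ILC2 was not resolved. For Il7r the ILC2 difference minus the basophil difference was -5.94 (95% interval -9.41 to -2.48, unadjusted p = 0.00195, adjusted p = 0.728), with Il7r at 130.9, 34.4 and 30.8 CPM in papain + FK506 and 5.8, 10.7 and 4.4 CPM in papain basophil libraries. Pim3 had an unadjusted p under 0.05 against each of the other cell types, with ILC2 differences that exceeded the basophil, AEC2 and AEC1 differences by 4.24, 4.62 and 4.58 on the log2 scale. Adjusted p-values for Pim3 were 0.891, 0.711 and 0.721. Those differences rest on the ILC2 papain replicate 3 library, where Pim3 was at 0: without replicate 3 of both ILC2 groups they were 1.90, 2.28 and 2.24, and none had an unadjusted p under 0.05. The Il7r difference against basophils was -4.72 (adjusted p = 0.801) in that fit. Il13 was at 0 in all basophil, AEC2 and AEC1 libraries, so its values could be compared between treatments in ILC2 alone.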

How the data were processed

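Lung cells were sorted by flow cytometry, and 10 ng of their total RNA went into a Lexogen 3′ library each, per the labels. STAR 2.7.0c and featureCounts 1.6.0 appear in the submitters' processing notes, along with the builds mm10 and GRCm38.p6; strand setting and multi-mapping are not given in the sources used here. The authors deposited CPM for basophil and most AEC libraries; the ILC2 values are whole numbers on that scale and were treated as a score, CPM rounded by the authors. No count test was run on them. In the AEC papain libraries 100.0% of values under 25 CPM were whole reads within 0.1 read, and edgeR's quasi-likelihood test on those reads called 0 of 5471 AEC2 and 0 of 7043 AEC1 genes (142 and 327 at an unadjusted p under 0.05).

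Genes at 10 or more in at least 3 of the 9 ILC2 libraries were tested (6271). Of the genes in the tables, 27 had no value in replicate 3 and were left out. Values were divided by each library's sum times its TMM factor (edgeR 4.0.16), taken relative to the mean of these, a pseudocount of 2 was added, and limma 3.58.1 (R 4.3.3; trend, not robust) was fitted to the log2 of the result with group and file code as terms. Tests were two-sided with Benjamini-Hochberg adjustment over all genes and a threshold of 0.05. A fitted difference is on the log2(value + 2) scale and understates changes of low genes. The interaction fit scaled libraries within each cell type and kept genes at 10 or more in at least 2 libraries. The limma fits and the edgeR test were run on simulated data with known changes. The interaction simulation used a smaller spread than that of the data, and the edgeR simulation an assumed one. Neither shows what the interaction fit or the edgeR test could call at the real spread.

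Depth was estimated as the step that best explains which whole numbers occur among values from 2 to 80; the precision of a low value is 1 read, or 0.398 to 1.106 CPM in the 6 libraries compared. A value of 0 means that a gene was listed at 0; Gapdh was at 0 in 4 of these libraries.

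Named genes were those called, the 12 largest and 12 smallest differences defined in the text, list members at an unadjusted p under 0.05 or otherwise the highest 4, and the defining genes. The members, the 34 gene lists and this rule were chosen with earlier results of these data known. Alternatives were other pseudocounts, filters, scalings, fits and left-out libraries. Coordinates and promoter sequences are those of RefSeq, GRCm38.p6. Some genes are not reported here.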

Additional observations from a re-analysis of the deposited data

How the results depend on the processing

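Of 1178 values that 19 alternatives gave for 64 genes, 1148 kept their direction and their side of the threshold, and 55 genes never changed direction. The count of called genes, 1 in the report, was 3 with a pseudocount of 10 (Cxcl2, Il7r, Rn45s), 2 without scaling beyond the deposited values (Cxcl2, Rn45s), 5 with robust variance estimation (Cxcl2, Il7r, Pim3, Psap, Rora), 2 with array weights (Arg1, Cxcl2) and 1 without the file code (Rn45s). It was 0 with a filter of 50 in 3 libraries, with only the 6 libraries compared, with replicates 1 and 2 only, and without the 2 libraries with the fewest genes (papain + FK506 replicate 1 and papain replicate 3), an alternative chosen after seeing the data. Leaving out single libraries gave 0 to 2 genes. The Cxcl2 difference of 1.52 missed the threshold at 1.52 with the filter of 50 (adjusted p = 0.559 by limma), 1.52 without the file code (0.117), 1.53 with 6 libraries (0.0945), 1.40 with replicates 1 and 2 only (0.655), 1.52 without the 2 sparse libraries (0.941); the cause was not tested. Leaving out single libraries gave Cxcl2 differences of 1.24 to 1.81, and 4 of the 6 removals that concern these groups took the call away. Same-numbered libraries did not all deviate together (correlations of 0.05, 0.07 and 0.16); with the replicate block 1 gene was called, Cxcl2 at 1.52 (adjusted p = 0.00176).

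Direction reversed for Il1rl1 (0.18) and Neat1 (-0.07) with replicates 1 and 2 only, and for Irf1 (-0.40), Rpl13 (0.01) and Rn45s (0.47) without the 2 sparse libraries. Leaving out single libraries gave ranges that cross 0 for Klrg1 (-3.57 to 0.11), Gata3 (-2.32 to 0.15), Il5 (-0.97 to 0.38), Irf1 (-0.12 to 3.16), Rn45s (-1.50 to 0.08) and Nr4a1 (-0.17 to 0.85). None of these passed the threshold in the report. Leaving out 1 library moved the difference by over 1.5 times for 43 of the 64 genes, none of which was called. Median standard errors were 1.66 for genes that averaged under 20 and 1.69 from 20 to 50, both above the Cxcl2 difference.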
